A study of Homo sapiens with 4 samples.

Results

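The genes of protein kinase CK2 were examined in 2 human cell lines of ovarian cancer, HeyC2 and SKOV3. The members were chosen by symbol, as the genes of the kinase that the inhibitor CX-4945 targets in the study. The choice made no use of their values, though earlier results of these data were known. The members are the 3 genes CSNK2A1, CSNK2A2 and CSNK2B out of 26506 gene symbols in each expression table. All 3 passed the filter on low values in both cell lines. RNA sequencing had been performed on 4 cultures, 1 library each. They were HeyC2 with the empty plasmid (control), HeyC2 with the plasmid pCMV6/TET1 (TET1-reprogrammed), SKOV3 control and SKOV3 TET1-reprogrammed. All 4 cultures were transfected with lipofectamine and kept under Geneticin, so the controls share the transfection and the selection, and TET1 was driven by the strong viral promoter of the plasmid. TET1 is an enzyme that oxidises methylated cytosine and starts its removal from DNA. With 1 library per condition no difference has a replicate check, and no p-value is given between conditions.

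CK2 is a serine/threonine kinase that is active without a second messenger and phosphorylates serines and threonines next to acidic residues. A dimer of the regulatory subunit CK2β (CSNK2B) holds the catalytic subunits CK2α (CSNK2A1) and CK2α′ (CSNK2A2) and directs them to some of their substrates, and the catalytic subunits are also active without it. The kinase is abundant in most tumour cells, where its substrates include the HSP90 co-chaperone CDC37, the kinase AKT1 and proteins of DNA repair. CX-4945 (silmitasertib) competes with ATP in the catalytic subunits. The question addressed was how the genes of the drug's target were expressed in control and TET1-reprogrammed cells.

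CSNK2A1 lies on chromosome 20 (GRCh37, the build of hg19, 453142 to 524479, minus strand), and its reference coding sequence of 1173 bases is split over 12 coding exons. CSNK2A2 lies on chromosome 16 (58191811 to 58232010, minus strand) with 1050 coding bases in 11 coding exons. CSNK2B lies in the major histocompatibility region of chromosome 6 (31633004 to 31638120, plus strand) with 645 coding bases in 6 coding exons. A single-exon copy of CSNK2A1, CSNK2A3, lies on chromosome 11 (11373489 to 11374797, minus strand). The window of 150 coding bases, the read length, in which CSNK2A1 and CSNK2A2 are most alike shows how far reads of the catalytic genes can be told apart. The sequences are from GENCODE transcripts on GRCh37, 5′ to 3′, from coding base 607 to 756 in CSNK2A1 and CSNK2A3 and from 610 to 759 in CSNK2A2, counted from the start codon. Capitals mark bases that differ from CSNK2A1.
CSNK2A1: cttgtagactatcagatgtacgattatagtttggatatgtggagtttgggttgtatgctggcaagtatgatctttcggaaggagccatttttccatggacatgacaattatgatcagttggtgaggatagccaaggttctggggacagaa
CSNK2A2: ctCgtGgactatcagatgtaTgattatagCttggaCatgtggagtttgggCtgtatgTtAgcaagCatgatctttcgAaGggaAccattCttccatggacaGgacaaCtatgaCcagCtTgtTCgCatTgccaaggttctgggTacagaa
CSNK2A3: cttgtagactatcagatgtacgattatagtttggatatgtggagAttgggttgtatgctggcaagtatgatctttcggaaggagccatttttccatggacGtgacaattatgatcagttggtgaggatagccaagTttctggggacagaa

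Even in this window CSNK2A2 differed from CSNK2A1 at 23 of 150 bases, and over 1047 aligned coding bases the identity of the genes was 75.4%. None of the 1024 windows of 150 bases in the CSNK2A1 coding sequence occurred unchanged in CSNK2A2 (0 of 1024). CSNK2A3 differed from CSNK2A1 at 3 bases of the window and at 8 of 1173 coding bases (99.3% identity), and 538 of the 1024 windows (52.5%) were the same in both. CSNK2A3 was listed at 0 FPKM in all 4 libraries. How the authors' quantification divided shared reads between CSNK2A1 and its copy was not tested, so the values of CSNK2A1 may hold reads of both genes.

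Values are FPKM, fragments per transcript length and sequencing depth. In each TET1 library the deposited FPKM had been multiplied by 1 constant, 3.23 for HeyC2 and 1.35 for SKOV3, after which GAPDH equals that of the control. Levels are therefore given on both scales, and changes relative to the median change of all genes. The depth, estimated from the steps between low FPKM, was 6570000 to 7375000 fragments per library. Before the GAPDH scaling, TET1 itself stood at 0.20 FPKM without and 0.52 with its plasmid in HeyC2, and at 0.43 and 1.80 in SKOV3, or about 13.9, 32.6, 28.7 and 111.7 fragments. The counting intervals overlapped in HeyC2, at 7.61 to 23.4 and 22.4 to 45.9 fragments, and not in SKOV3, at 19.2 to 41.3 and 91.9 to 134.4. In HeyC2 its mean was under the filter of 1 FPKM, and its change relative to all genes, which the pseudocount of 1 lowers at such levels, was -0.45. Of 11 markers of epithelial and ovarian carcinoma cells, 6 to 9 were at 1 FPKM or more in a library. The epithelial adhesion genes EPCAM and CDH1 were under 1 FPKM before the GAPDH scaling in both HeyC2 libraries, where the mesenchymal filament gene VIM stood at 7496 and 2927 FPKM. In the same libraries WT1 and MUC16 were listed at 0. Other listed markers were well expressed there, with KRT7 at 290 and 1125 FPKM and KRT8 at 476 and 386. KRT18 was at 378 and 379 FPKM and PAX8 at 128 and 195. Among the listed keratins, KRT7 and KRT19 were lower in SKOV3 TET1 than in its control before the scaling, at 22.0 against 1537 FPKM and 0.46 against 255. KRT8 and KRT18 were higher there, at 775 against 560 FPKM and 255 against 193. ERBB2 was at 1282 FPKM in the SKOV3 control and 1464 FPKM in SKOV3 TET1. Of 5 fibroblast markers 0 to 3 reached 1 FPKM, with a summed level in SKOV3 of 1.04 FPKM without and 34.1 with TET1, most of the latter COL1A1. Of 5 immune markers, 1 reached 1 FPKM in each library, CD68, while the T cell gene CD3E was listed at 0 throughout. Of 3 endothelial markers, CDH5 alone reached 1 FPKM, in HeyC2 only (18.9 and 94.6 FPKM).

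CSNK2A1, which encodes the catalytic subunit CK2α, had a higher FPKM in the TET1-reprogrammed library of both lines, before and after the GAPDH scaling. In HeyC2 its deposited FPKM was 30.38 without and 131.67 with TET1, and in SKOV3 it was 51.41 and 85.14. Before the GAPDH scaling the TET1 values were 40.7 and 63.3 FPKM. The 95% intervals for counting error ran from 26.6 to 34.6 FPKM in the HeyC2 control and from 36.0 to 45.8 FPKM in HeyC2 TET1, so they did not overlap. In SKOV3 they ran from 46.3 to 56.9 and from 57.4 to 69.6 FPKM and did not overlap either. These intervals rest on a low estimate of the fragments, from the coding length alone, and cover counting error only, not the spread between cultures. The median of all genes before the scaling was itself higher with TET1, by 0.06 in HeyC2 and 0.19 in SKOV3 (log2). Relative to that median, CSNK2A1 was at 0.35 in HeyC2 and 0.10 in SKOV3.

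CSNK2A2 encodes CK2α′, the catalytic subunit known for its role in sperm formation. It was the lowest of the subunit genes in every library. HeyC2 had deposited values of 23.56 FPKM without and 64.43 with TET1, and SKOV3 of 36.94 and 51.47. Before the scaling the TET1 values were 19.9 FPKM in HeyC2 and 38.2 FPKM in SKOV3, each inside or next to the counting interval of its control (19.99 to 27.6 and 32.3 to 42.0 FPKM).

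CSNK2B, the gene of the regulatory subunit, was the highest of the subunit genes in every library. The deposited FPKM without and with TET1 were 85.90 and 284.92 in HeyC2, and 90.71 and 97.94 in SKOV3. Before the scaling the TET1 values were 88.1 FPKM in HeyC2 and 72.8 FPKM in SKOV3. HeyC2 TET1 lay inside the interval of its control (76.6 to 96.1 FPKM), while the intervals in SKOV3, 80.9 to 101.4 in the control and 63.7 to 82.8 in TET1, overlapped only at their ends. The ends of CSNK2B overlap those of GPANK1 and LY6G5B on the chromosome. The strand setting of the counting is not given in the sources used here, so reads of these ends cannot be assigned with certainty.

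**Figure D1:**
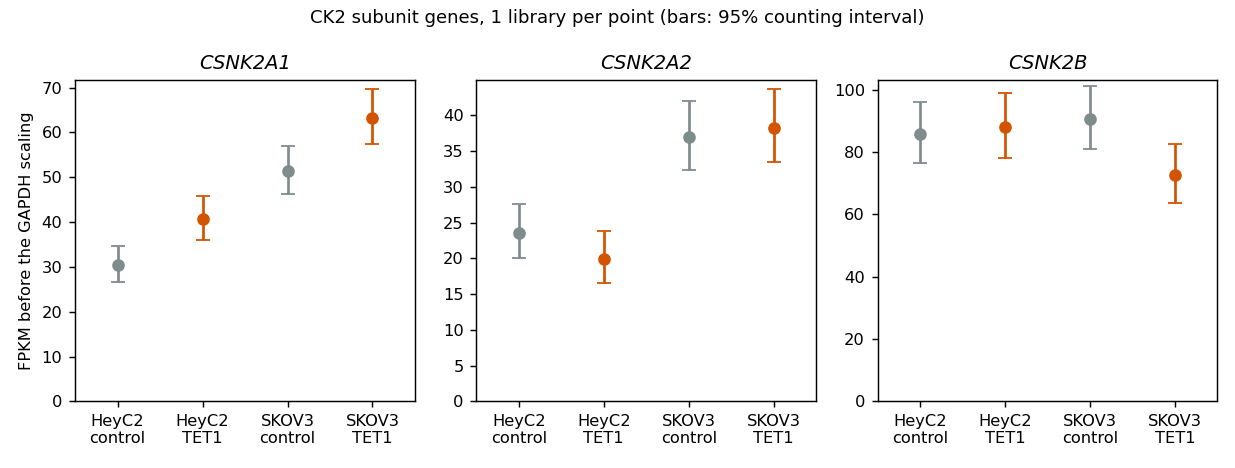
FPKM of CSNK2A1, CSNK2A2 and CSNK2B (vertical axes from 0, before the GAPDH scaling) in the 4 libraries, 1 point per library, grey for control and orange for TET1, with bars for the 95% counting interval. CSNK2A1 stands higher in TET1 in both lines, at 40.7 against 30.38 FPKM in HeyC2 and 63.3 against 51.41 in SKOV3. CSNK2B is lower in TET1 in SKOV3 alone, at 72.8 against 90.71. On this scale the median of all genes was itself higher with TET1, by 0.06 in HeyC2 and 0.19 in SKOV3 (log2).

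The order CSNK2B, CSNK2A1, CSNK2A2 was the same in the 4 libraries on the FPKM scale, which divides by length and so allows levels of different genes to be compared. The ratio of CSNK2B to CSNK2A1, control first, was 2.83 and 2.16 in HeyC2 and 1.76 and 1.15 in SKOV3. In SKOV3 TET1 its counting interval, 0.98 to 1.35, held 1, so the order of these neighbours is not settled there. The genes were all well expressed. Of the genes at 1 FPKM or more in the same library, CSNK2B stood above 91.5% to 92.9%, CSNK2A1 above 78.6% to 90.1% and CSNK2A2 above 67.5% to 81.7%. The level of CSNK2A1 against the other genes depends on the transcript length that the authors' annotation gave it, since its reference transcript in GENCODE has 12984 bases, most of them untranslated, against 1887 for CSNK2A2 and 929 for CSNK2B.

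Ratios of subunit genes within a library do not depend on any scaling of that library. The ratio of CSNK2A1 to CSNK2A2 was 1.29 in the HeyC2 control (counting interval 1.05 to 1.58) and 2.04 in HeyC2 TET1 (1.65 to 2.54). In SKOV3 it was 1.39 in the control (1.18 to 1.64) and 1.65 in TET1 (1.41 to 1.95). CSNK2A1 thus made up 56.3% of the summed catalytic FPKM in the HeyC2 control and 67.1% in HeyC2 TET1, against 58.2% and 62.3% in SKOV3. The log2 ratio was higher in TET1 by 0.66 in HeyC2, with a counting interval of 0.24 to 1.09. In SKOV3 it was higher by 0.25, with an interval of -0.08 to 0.58 that holds 0. The direction was the same in both lines. Since the fragments are a low estimate, the intervals are wide, and one that holds 0 or 1 does not show equality. Whether the lines differ in this shift was not tested.

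The ratio of CSNK2B to the sum of both catalytic genes was 1.59 in the HeyC2 control and 1.45 in HeyC2 TET1, while in SKOV3 it was 1.03 without and 0.72 with TET1. Regulatory transcripts thus exceeded catalytic ones per length in HeyC2, stood near them in the SKOV3 control, with an interval of 0.90 to 1.18, and were fewer in SKOV3 TET1, with an interval of 0.62 to 0.83. The log2 change with TET1 was -0.52 in SKOV3 (-0.81 to -0.22) and -0.13 in HeyC2 (-0.44 to 0.18). The sum of the catalytic genes before the scaling was 53.9 and 60.6 FPKM in HeyC2 and 88.3 and 101.5 FPKM in SKOV3, control first. These sums carry no interval, and the median of all genes was itself higher with TET1 on that scale, by 0.06 in HeyC2 and 0.19 in SKOV3 (log2).

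**Figure D2:**
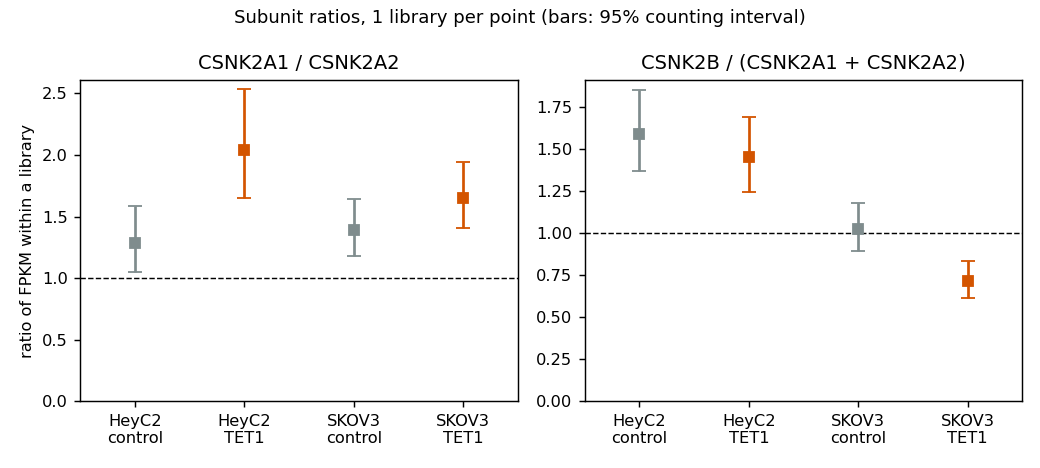
Ratios of FPKM within each library, CSNK2A1 to CSNK2A2 on the left and CSNK2B to the sum of both catalytic genes on the right, with vertical axes from 0, 1 point per library, bars for the 95% counting interval and a dashed line at 1. The left ratio is 2.04 in HeyC2 TET1 against 1.29 in its control, and the right one is 0.72 in SKOV3 TET1, below the 1.03 of its control.

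The change of each gene with TET1 was computed as log2((TET1 + 1)/(control + 1)) on deposited FPKM, over genes with a mean of at least 1 FPKM in the line, and the median of all genes was subtracted. The median was 1.61 in HeyC2 (12993 genes) and 0.59 in SKOV3 (13339 genes). Before the GAPDH scaling it was 0.06 and 0.19. Relative to it, CSNK2A1 was at 0.47 in HeyC2 (counting interval 0.22 to 0.72) and at 0.13 in SKOV3 (-0.07 to 0.33). CSNK2A2 was at -0.20 in HeyC2 (-0.54 to 0.15) and at -0.12 in SKOV3 (-0.39 to 0.14). CSNK2B was at 0.11 in HeyC2 (-0.12 to 0.34) and at -0.48 in SKOV3 (-0.72 to -0.23). The intervals that left out 0 were thus those of CSNK2A1 in HeyC2 and CSNK2B in SKOV3, each a difference of about 1.39-fold. Before the GAPDH scaling the value of CSNK2A1 in HeyC2 was smaller, at 0.35, and that of CSNK2B in SKOV3 was -0.51.

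None of the 3 genes was at least 1.5-fold from the median of all genes in either line (0 of 3). Of all genes, 13% were at least 1.5-fold higher and 12.9% at least 1.5-fold lower in HeyC2, against 20.6% and 17.9% in SKOV3. Before the GAPDH scaling these shares were 12.5% and 9.17% in HeyC2 (11894 genes) and 20.7% and 18.2% in SKOV3 (13013 genes). With correction for GC content and length, CSNK2A1 was past 1.5-fold in HeyC2, at 0.63. With no filter on low values all 3 were past it in HeyC2 and CSNK2A1 in SKOV3. Symbols at or near 0 FPKM then enter the all-gene median, which by construction moves toward 0 and shifts every gene alike. The share of all genes past 1.5-fold without the filter is not given here. In HeyC2, 82.8% of the genes had a lower relative change than CSNK2A1, 33.4% a lower one than CSNK2A2 and 59.5% a lower one than CSNK2B. In SKOV3 the shares were 57.8%, 42.7% and 22.9%. The members thus lay on both sides of the median in each line. The difference of relative changes between CSNK2A1 and CSNK2B was 0.61 in SKOV3 (0.29 to 0.93) and 0.36 in HeyC2 (0.02 to 0.71). Between the lines, HeyC2 minus SKOV3, the relative change of CSNK2B differed by 0.59 (0.25 to 0.93). That of CSNK2A1 differed by 0.34 (0.02 to 0.67) and that of CSNK2A2 by -0.07 (-0.51 to 0.36), all with counting intervals only. Before the GAPDH scaling the relative changes of CSNK2A1 lay nearer to each other, at 0.35 in HeyC2 and 0.10 in SKOV3. No interval is given for their difference on that scale.

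The relative change varied with the level of a gene. In HeyC2 the pseudocount of 1, added after the GAPDH scaling, lowers it at low levels. In SKOV3 the 2331 genes between 30 and 100 FPKM, where all 3 members lay, had a median of -0.22 and quartiles of -0.62 and 0.19, which enclose CSNK2A1, CSNK2A2 and CSNK2B alike. In HeyC2 the 1905 genes of that range had a median of 0.11, the value of CSNK2B, and an upper quartile of 0.39, below CSNK2A1. CSNK2A2 lay in the range of 10 to 30 FPKM there, whose 3608 genes had a lower quartile of -0.19. These ranges were chosen after the values were seen, and the part of the level in the members' changes was not tested.

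**Figure D3:**
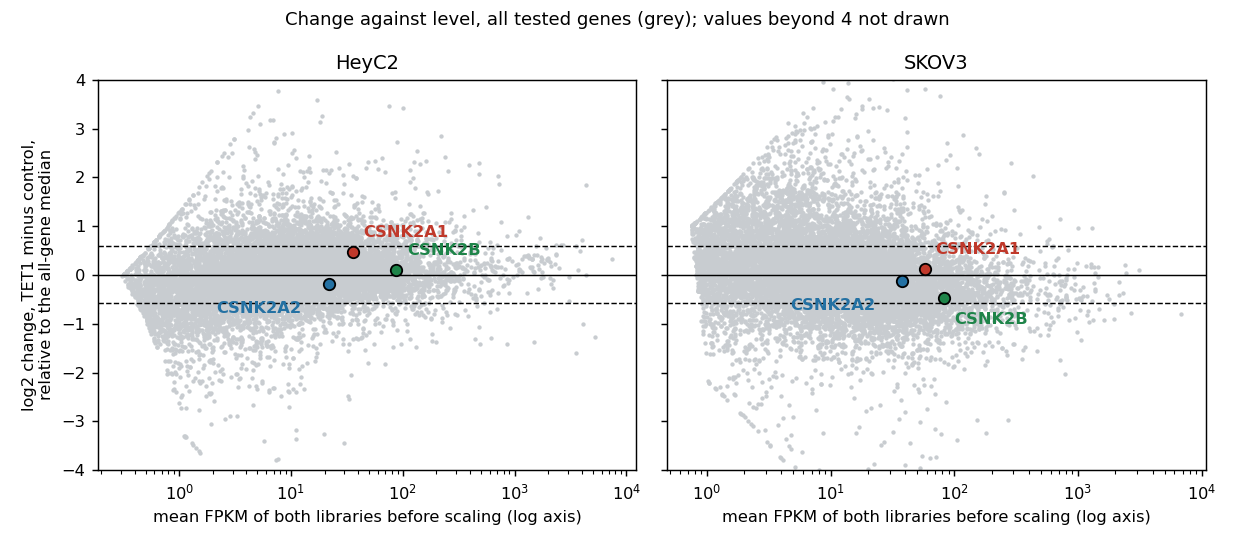
Log2 change with TET1 relative to the all-gene median (vertical axis) against the mean FPKM of both libraries before the scaling (horizontal log axis) for all tested genes (grey, 12993 in HeyC2 and 13339 in SKOV3), with the CK2 genes in colour and dashed lines at 1.5-fold. All 3 CK2 genes lie between the dashed lines in both lines, with CSNK2A1 at 0.47 in HeyC2 and CSNK2B at -0.48 in SKOV3 nearest to them.

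Between the control libraries, the catalytic genes were lower in HeyC2 than in SKOV3, with 30.38 against 51.41 FPKM for CSNK2A1 and 23.56 against 36.94 FPKM for CSNK2A2. CSNK2B was at 85.90 and 90.71 FPKM. The tables of the lines were made separately. Relative to the median difference of all genes, HeyC2 minus SKOV3, CSNK2A1 was at -0.47 (-0.71 to -0.23), CSNK2A2 at -0.36 (-0.65 to -0.07) and CSNK2B at 0.19 (-0.04 to 0.42). None was past 1.5-fold (0 of 3), against 29% of 12488 genes higher and 28.6% lower, although CSNK2A1 was, at -0.65, with correction for GC content and length. With no filter on low values, CSNK2A1 (-0.74) and CSNK2A2 (-0.63) were both past it, as silent symbols then moved the all-gene median toward 0. The ratio of CSNK2B to the catalytic genes was 1.55-fold higher in the HeyC2 control, at 0.63 on the log2 scale (0.34 to 0.93), whereas that of CSNK2A1 to CSNK2A2 differed by -0.11 (-0.49 to 0.27).

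The genes whose pattern over the 4 libraries was most like that of each member were sought among 11888 genes, by the Euclidean distance of log2(FPKM + 1) after subtraction of library medians and gene means. They were the zinc finger gene ZXDC (distance 0.05), BBIP1 (0.05) and GPR160 (0.08) for CSNK2A1. For CSNK2A2 they were ZSCAN25 (0.03), the kinase gene PAK4 (0.03) and NSMCE1 (0.03). For CSNK2B they were the prolyl endopeptidase gene PREP (0.02), ROM1 (0.05) and VPS50 (0.05). Some of these genes stood at low levels, where the pseudocount of 1 on scaled values alters the pattern. Before the scaling, control first in HeyC2, ROM1 was at 1.03 and 1.81 FPKM, against 85.90 and 88.1 for CSNK2B. ZSCAN25 was at 1.91 and 2.08 FPKM, against 23.56 and 19.9 for CSNK2A2. The members were not close to each other. CSNK2A2 ranked 1440 in likeness to CSNK2A1 (distance 0.51) and CSNK2B ranked 5621 (0.93), and 76 genes lay within 0.2 of CSNK2A1.

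The nearest expressed genes on the chromosome were examined, 3 on either side of each member. Around CSNK2A1, the relative change in HeyC2 was 0.87 for TBC1D20 and 0.48 for SRXN1, the gene of an antioxidant reductase, on its sides, but -1.50 for TRIB3, a gene induced by ATF4. In SKOV3 the same genes were at 0.34, -0.28 and 2.13. Around CSNK2A2 the 6 genes ran from -0.72 (USB1) to 0.32 (MMP15) in HeyC2 and from -1.47 (GINS3) to 1.52 (NDRG4) in SKOV3. Around CSNK2B, GPANK1 had values of -0.02 and -0.23 in HeyC2 and SKOV3, and BAG6 of 0.03 and -0.47, while ABHD16A was at -0.45 and 0.03 and DDAH2 at 0.91 and 1.03. LY6G5B, which overlaps the end of CSNK2B, was at 1.76 and 0.12. The neighbours of each member thus held both higher and lower genes in each line.

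**Figure D4:**
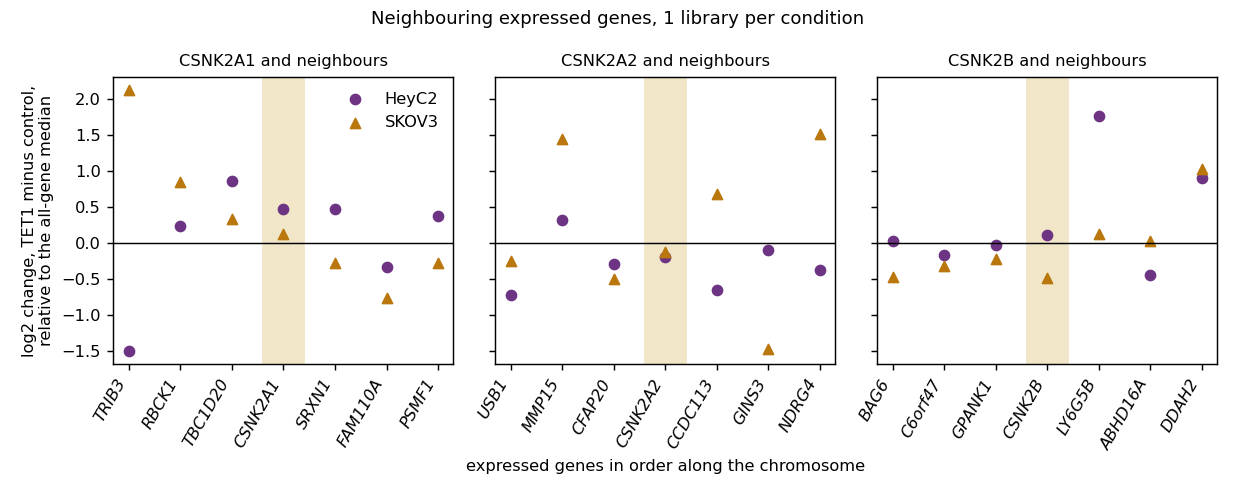
Log2 change with TET1 relative to the all-gene median (vertical axis) for each CK2 gene (shaded) and the 3 nearest expressed genes on either side, in order along the chromosome, with circles for HeyC2 and triangles for SKOV3, 1 value per line. Neighbours lie on both sides of 0 at each locus, from -1.50 (TRIB3, HeyC2) to 2.13 (TRIB3, SKOV3) around CSNK2A1.

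Genes around CK2 were taken from lists written by hand, with earlier results of these data known. Partners and regulators of the kinase were close to the median of all genes in HeyC2 and below it in SKOV3. Of 14 genes, 1 was at least 1.5-fold higher and 0 lower in HeyC2, while SKOV3 had 0 higher and 9 lower, against backgrounds of 13% and 12.9% in HeyC2 and 20.6% and 17.9% in SKOV3. Their median lay at -0.12 in HeyC2 and at -0.77 in SKOV3. The highest was PLEKHO1, which binds CK2α, at 0.81 and 0.39. The other of the highest was CDC73, a subunit of the PAF1 complex, at 0.06 and -0.11. Among the lowest was the chaperone gene HSP90AA1, at -0.33 and -1.10. HSP90AA1 stood at 402 and 303 FPKM in HeyC2 and 764 and 399 FPKM in SKOV3, control first and before the scaling. Levels of that height had a median of -0.35 and a lower quartile of -0.67 in SKOV3 (798 genes above 100 FPKM). By level in SKOV3, 3 of 6 list genes from 10 to 30 FPKM were lower, against 18.2% of all genes of that range. From 30 to 100 FPKM it was 2 of 3, against 27.0%, and above 100 FPKM 4 of 5, against 29.2%.

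Substrates of the nucleolus and of translation had medians of -0.05 in HeyC2 and -0.64 in SKOV3. None of the 12 genes passed 1.5-fold in HeyC2, where 13% of all genes were higher and 12.9% lower. In SKOV3, 7 were lower and 0 higher, against 17.9% and 20.6%. By level in SKOV3, 3 of 3 list genes from 10 to 30 FPKM were lower, against 18.2% of all genes of that range. From 30 to 100 FPKM it was 1 of 4, against 27.0%, and above 100 FPKM 3 of 5, against 29.2%. The lowest were the nucleolar genes NCL (nucleolin), at -0.08 in HeyC2 and -1.08 in SKOV3, and NOLC1, at -0.15 and -0.88. The highest were the initiation factor gene EIF2S2, at 0.21 and 0.24, and the ribosomal stalk gene RPLP1, at -0.11 and -0.18.

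Substrates of DNA repair and chromatin had medians of -0.04 in HeyC2 and -0.43 in SKOV3. Of 19 genes, 2 were higher (HMGA1 and OTUB1) and 2 lower (TOP2A among them) in HeyC2, and 2 were higher (DNMT3A among them) and 3 lower (TOP2A and HMGA1 among them) in SKOV3. The shares were 10.5% and 10.5% in HeyC2, against 13% and 12.9% of all genes. In SKOV3 they were 10.5% and 15.8%, against 20.6% and 17.9%. With so few genes these shares cannot be told from those of all genes. Below the all-gene median lay 10 of the 19 genes in HeyC2 and 16 in SKOV3. Topoisomerase gene TOP2A, which dividing cells express, was the only one past 1.5-fold in the same direction in both, at -1.25 and -1.03. The highest were the DNA methyltransferase gene DNMT3A, at 0.16 and 0.78, and the deacetylase gene HDAC3, at 0.36 and -0.03.

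Substrates in signalling had medians of 0.19 in HeyC2 and -0.14 in SKOV3. Of 15 genes, 2 were higher (NFKBIA and DVL3) and 1 lower (IGF2R) in HeyC2, and 0 were higher and 4 lower (AKT1, DVL1, CDC37 and IGF2R) in SKOV3. The shares were 13.3% and 6.67% in HeyC2, against 13% and 12.9% of all genes, and 0% and 26.7% in SKOV3, against 20.6% and 17.9%. By level in SKOV3, 0 of 4 list genes from 10 to 30 FPKM were lower, against 18.2% of all genes of that range. From 30 to 100 FPKM it was 2 of 7, against 27.0%, and above 100 FPKM 2 of 4, against 29.2%. The sorting receptor gene IGF2R was lower in both, at -0.59 and -1.07, the first just past the threshold. The chaperone gene CANX was at -0.34 and -0.40. The Wnt relay gene DVL3 was at 0.89 and 0.33. NFKBIA, the gene of the NF-κB inhibitor whose turnover CK2 promotes, was at 1.59 in HeyC2 and -0.58 in SKOV3.

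Substrates among transcription factors had medians of 0.04 in HeyC2, or -0.04 before the GAPDH scaling, and 0.03 in SKOV3, or -0.02 with a pseudocount of 0.1. Of 9 genes tested of 10 on the list, 1 was higher (JUN) in HeyC2, and 1 was higher (ATF4) and 3 lower (MYC, SRF and GTF2F1) in SKOV3, or 11.1% and 0% in HeyC2 and 11.1% and 33.3% in SKOV3, against the same shares of all genes as above. ATF4 was at 0.16 and 0.83 and ATF1 at 0.48 and 0.32. SRF was at -0.24 and -0.69 and GTF2F1 at -0.14 and -0.80. Over the 66 genes tested of all 5 lists, some of them on more than 1 list, 6 were higher and 3 lower in HeyC2 (9.09% and 4.55%, against 13% and 12.9% of all genes), whereas SKOV3 had 3 higher and 24 lower (4.55% and 36.4%, against 20.6% and 17.9% of all genes). In SKOV3 these genes were mostly abundant, and lower genes were more frequent at high levels there. From 10 to 30 FPKM, 7 of 21 list genes were lower, against 18.2% of all genes of that range. From 30 to 100 FPKM it was 7 of 23, against 27.0%, and above that 10 of 18, against 29.2%. The part of the level in the lists' values was not tested.

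CK2 belongs to the CMGC group of kinases with the cyclin-dependent, MAP, GSK3, DYRK and CLK kinases. Their medians were -0.07 in HeyC2 (28 genes tested of 29) and -0.11 in SKOV3 (29 genes). In HeyC2, 1 was higher (CLK2) and 4 lower (CDK1, CDK8, DYRK4 and HIPK2). In SKOV3, 4 were higher (DYRK1B, DYRK2, DYRK3 and HIPK2) and 4 lower (CDK1, CDK2, GSK3A and SRPK1). The shares were 3.57% and 14.3% in HeyC2, against 13% and 12.9% of all genes, and 13.8% each way in SKOV3, against 20.6% and 17.9%. The mitotic kinase gene CDK1 was lower in both, at -0.78 and -0.87. CLK2, of a family of splicing kinases that CX-4945 also inhibits, was highest on average, at 0.76 in HeyC2 and 0.52 in SKOV3, followed by DYRK3 at 0.42 and 0.62. DYRK4 was at -1.23 and 0.05.

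The casein kinase 1 family, which shares only the name with CK2, was listed together with the secretory FAM20 family. The list is called other casein kinases here, as a label only. Its medians were 0.07 in HeyC2 and 0.13 in SKOV3 over 8 genes tested of 10. The HeyC2 median was -0.03 before the GAPDH scaling and -0.05 with a pseudocount of 0.1. None passed 1.5-fold in HeyC2, where 13% of all genes were higher and 12.9% lower. In SKOV3, 1 (12.5%) was higher and 0 lower, against 20.6% and 17.9% of all genes. CSNK1D and CSNK1E, which phosphorylate the clock proteins of the PER family, were highest, at 0.42 and 0.53 and at 0.25 and 0.65. CSNK1A1 was at 0.09 and -0.36 and FAM20B at -0.05 and -0.37.

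**Figure D5:**
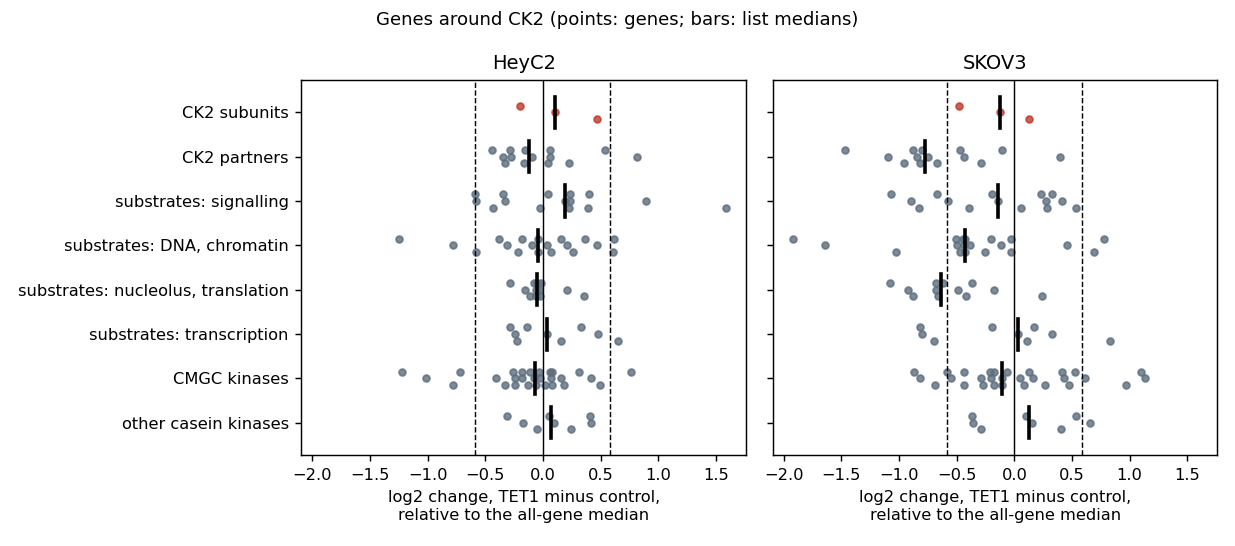
Log2 change with TET1 relative to the all-gene median (horizontal axis) for the CK2 subunit genes (red) and genes of the lists around CK2 (grey), 1 point per tested gene, with black bars for list medians and dashed lines at 1.5-fold. In HeyC2 the list medians lie between -0.12 and 0.19, while in SKOV3 those of CK2 partners (-0.77) and of nucleolar and translation substrates (-0.64) lie left of the dashed line.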

How the data were processed

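The deposited FPKM were made by the authors, per the labels, from paired-end TruSeq libraries aligned to hg19 with Bowtie2 2.2.6 and quantified with RSEM 1.2.17. The annotation is not given in the sources used here. Each TET1 library had also been multiplied by a GAPDH constant, recovered as the step on which 100% of distinct values up to 40 FPKM lay. The members and lists were chosen with earlier results of these data known. Depth was taken as the total for which low FPKM of 2762 single-transcript genes, with 160 bases taken off each length, fell on whole fragments (62.5% to 68.7% within 0.15 of a fragment). Members' fragments (118 to 421) used coding lengths, and 95% intervals are Poisson. No test between conditions was run. An exact permutation over the 2 cell lines could not go below p = 0.5.

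Genes named were the members, TET1, GAPDH, copies of the members, the 3 genes most like each member, the 3 nearest expressed genes on either side, and of each list the 2 highest and 2 lowest by mean relative change and any past 1.5-fold in the same direction in both lines. Other names beside counts of 5 or fewer, and the markers given by value, were chosen after their values were seen. Some genes of the lists are counted and not reported by name here. GENCODE on GRCh37 gave positions and lengths for 22638 of 26506 symbols (85.4%). Alternatives were pseudocounts of 0.1 and 0.01, no filter, a mean of 5 FPKM, FPKM before the GAPDH scaling, TPM, upper-quartile centring, correction for GC content and length in 20 bins each, and thresholds of 2-fold and 1.2-fold. The functions were tested on simulated data. Python 3.11.15, numpy 2.4.6, pandas 2.3.3, scipy 1.17.1, biopython 1.88 and matplotlib 3.10.9 were used.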

Additional observations from a re-analysis of the deposited data

Results flagged for a closer look

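The relative change of CSNK2B with TET1 pointed in opposite directions in the lines, at 0.11 in HeyC2 and -0.48 in SKOV3. The median of the signalling substrates did so too, at 0.19 in HeyC2 and -0.14 in SKOV3, or 0.10 and -0.17 before the GAPDH scaling. Neither difference between the lines was tested, since each rests on 1 library per condition. The counting interval of CSNK2B in HeyC2 holds 0, and its value was -0.02 before the GAPDH scaling.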

How the results depend on the processing

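No analysis paired by replicate number was possible because the labels carry none. Pairing by cell line leaves 2 pairs, for which an exact test could not go below p = 0.5, and it was not run. With no filter, symbols at or near 0 FPKM enter the all-gene median, which by construction moves toward 0. CSNK2A1, CSNK2A2 and CSNK2B were then at 1.46, 0.79 and 1.10 in HeyC2 and 0.64, 0.39 and 0.029 in SKOV3, and between the controls CSNK2A1 was at -0.74, CSNK2A2 at -0.63 and CSNK2B at -0.078. List medians without the filter were 0.86 (partners), 1.18 (signalling), 0.95 (DNA and chromatin), 0.94 (nucleolus and translation), 0.94 (transcription), 0.91 (CMGC kinases), 0.99 (other casein kinases) and 0.95 (all substrates and partners) in HeyC2. In SKOV3 they were -0.27 (partners), 0.37 (signalling), 0.083 (DNA and chromatin), -0.13 (nucleolus and translation), 0.42 (transcription), 0.40 (CMGC kinases), 0.57 (other casein kinases) and 0.081 (all substrates and partners). Members past 1.5-fold were then all 3 in HeyC2, CSNK2A1 in SKOV3 and both catalytic genes between the controls. The counts of substrates and partners past 1.5-fold were then 59 higher and 1 lower in HeyC2 and 15 higher and 4 lower in SKOV3. The shares of all genes without the filter are not given here, so these counts cannot be set against a background.

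Under the other settings each member stayed within its counting interval. The ratios, recomputed with a pseudocount of 1, stayed within theirs. CSNK2A1 in HeyC2 lay between 0.33 and 0.63, the latter, past 1.5-fold, with correction for GC content and length. CSNK2B in HeyC2 was at -0.02 before the GAPDH scaling and was below 0 under 5 of 8 alternatives, with -0.05 as the lowest value. CSNK2A2 in SKOV3 was at 0.03 with upper-quartile centring. Between the controls, the correction for GC content and length, added after the data were seen, gave -0.65 for CSNK2A1.

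With a pseudocount of 0.1 the medians in HeyC2 were -0.16 (nucleolus and translation) and -0.13 (all substrates and partners), and the former was -0.14 before the GAPDH scaling. The other casein kinases in HeyC2 were at -0.05 and -0.03 under these settings. The counts of substrates and partners in HeyC2 were 3 higher and 6 lower with a pseudocount of 0.1, 3 higher and 5 lower before the scaling, and 5 lower at a mean of 5 FPKM. At 2-fold they were 1 higher and 1 lower in HeyC2 and 0 higher and 7 lower in SKOV3. At 1.2-fold they were 15 and 17 in HeyC2 and 11 and 39 in SKOV3. Before the scaling, 12.5% of all genes in HeyC2 were at least 1.5-fold higher and 9.17% lower. For the other settings no share of all genes is given here, so their counts cannot be set against a background. With a pseudocount of 0.1, 1 of the 3 genes most like CSNK2A1 and 1 of the 3 most like CSNK2B were the same. The cause of these moves was not tested.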

Other observations

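Some genes around CK2 lay on opposite sides of the all-gene median in the lines. The kinase gene HIPK2 was at -1.01 in HeyC2 and 1.13 in SKOV3. The chromatin gene HMGA1, a substrate of CK2, was at 0.61 in HeyC2 and -1.64 in SKOV3. These genes were singled out after their values were seen, and the differences were not tested.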
